A study of Rattus norvegicus with 12 samples.

Results

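Potassium channel genes were examined as the genes whose array symbol begins with Kcn followed by a letter, in PC12 cells, which were established from a tumour of the rat adrenal medulla. On the array 89 such genes were found among 22093 genes with a symbol of their own, and each was read from the feature (a transcript-level probe set) with the highest mean over 12 arrays. All cells carried an inducible gene for a GFP-tagged exon-1 fragment of huntingtin with 74 glutamines, the part of the protein whose expansion causes Huntington disease. Arrays came in 4 groups of 3: cells left non-induced and given DMSO, the vehicle; cells induced and given DMSO; and cells induced and given 10 µM compound 3 or 10 µM compound 6 for 48 h, both described as guanabenz analogues. Induction was by doxycycline at 1 µg/ml, which the non-induced cells did not receive, so the fragment and its inducer cannot be told apart. The labels number the replicates without saying that they were separate cultures, and the p-values rest on the spread among these arrays alone, which may be technical. The labels also do not say whether the line is 1 clone or what promoter drives the fragment. Hours with DMSO or doxycycline were not among the sample details used, so equal times across groups are not shown.

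Potassium channels let potassium leave the cell and so set the resting membrane potential, repolarise the action potential and limit firing. In chromaffin cells, from which PC12 cells derive, they restrain calcium entry and with it the release of catecholamines. The family holds voltage-gated channels, inward rectifiers that hold the cell near rest, tandem-pore background channels that leak at rest, and channels opened by intracellular calcium or sodium. Auxiliary subunits, which form no pore themselves, change the gating and surface delivery of the pore-forming subunits.

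The deposited levels are log2 values, and the median of all feature means was 4.63. Of the 89 genes, 59 lay at or above this median and were tested, and 30 lay below it. The 36 voltage-gated genes had 26 at or above the median, the 15 inward rectifiers 6, the 14 tandem-pore genes 12, the 7 calcium- or sodium-activated genes 5 and the 17 auxiliary genes 10. The classes were set by symbol, and the calcium- or sodium-activated class includes Kcnu1. The genes below the median were the voltage-gated Kcna1, Kcna3, Kcna4, Kcnb2, Kcnc2, Kcnd2, Kcnh5, Kcnh7, Kcnv1 and Kcnv2, the inward rectifiers Kcnj1, Kcnj2, Kcnj3, Kcnj6, Kcnj8, Kcnj10, Kcnj13, Kcnj15 and Kcnj16, and the tandem-pore Kcnk9 and Kcnk10. Also below it were the sodium-activated Kcnt2, the sperm channel Kcnu1, and the auxiliary Kcnab1, Kcne1l, Kcne3, Kcne4, Kcnip1, Kcnip4 and Kcnmb2. Kcne1l is listed by RefSeq as an older name of Kcne5, which had a feature of its own above the median (6.17 against 3.18), so these features need not be separate genes. Just inside the limit were Kcna6 at 4.69, Kcnj9 at 4.68 and Kcnmb1 at 4.67, and just outside it Kcnd2 at 4.52, Kcnk10 at 4.44 and Kcnj1 at 4.39. A level places a feature on the array's scale and depends on its probes, so levels of different genes are not set against each other. The 10 brightest features are given in alphabetical order, only to place them on the array's scale and not as an order of expression: Kcnab2 (8.29), Kcnab3 (7.33), Kcnc4 (7.91), Kcnd3 (7.39), Kcnh2 (8.22), Kcnk12 (7.67), Kcnk3 (9.87), Kcnk6 (7.98), Kcnma1 (8.49) and Kcnn3 (9.02). More than 1 feature was present for 4 genes, Kcnk6, Kcnj1, Kcne1 and Kcnip2, and 1 further feature, shared by Trim13 and Kcnrg, was left out.

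The arrays had medians of 4.61 to 4.70 log2 units. Upper levels (the 95th percentile) ran from 10.29 to 10.32 without induction and read 10.32, 10.18 and 10.09 on induced DMSO 1, 2 and 3, and 10.18 to 10.27 with the compounds. Of 14 chromaffin markers 13 were on the array, and tyrosine hydroxylase Th and the granins Chga and Chgb had mean levels of 12.2, 12.2 and 12.3, while the adrenaline enzyme Pnmt lay at 5.43 and the vesicular transporter Slc18a2 at 4.30, below the median. Markers of adrenocortical, glial, fibroblast, endothelial and leukocyte cells, 17 on the array and 10 above the median, had mean levels from 2.26 (Lum) to 6.31 (Col1a1), and 0 of the 10 passed in any comparison. Their log2 values summed to 77.9 to 79.3 on non-induced and 78.1 to 80.2 on induced DMSO arrays. Values of 0 do not occur on this scale.

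The comparison of induced with non-induced cells, both in DMSO, asks what induction changes. Of the 59 genes tested, 12 passed at an adjusted p under 0.05 in the fit over 34422 features, 8 lower and 4 higher, which is 20.3% against 9.06% of all features and 12.1% of the named genes, each by 1 feature. Above the 75th percentile of feature means, where 18 of the members and 11 of the 12 calls lay, 16.2% of named genes were called. Arrays of the 2 groups lay apart for 17 of the 59 genes (28.8%) and for 22.7% of all features. The genes that fell were the calcium-activated Kcnn3 and Kcnma1, the tandem-pore Kcnk3, the inward rectifier Kcnj12, and the voltage-gated Kcnc4, Kcnq3, Kcnh3 and Kcng2. Kcnip3, Kcnd3, Kcnk12 and Kcnab2 rose. Lower calls made up 4.86% and higher calls 4.20% of all features. The median difference over the 59 genes was 0.03 and over all features 0.01. In RNA from a whole culture, fewer cells expressing a gene and less RNA per cell cannot be told apart. All differences below are in log2 units, with ± for the standard error and 3 arrays per group.

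**Figure D1:**
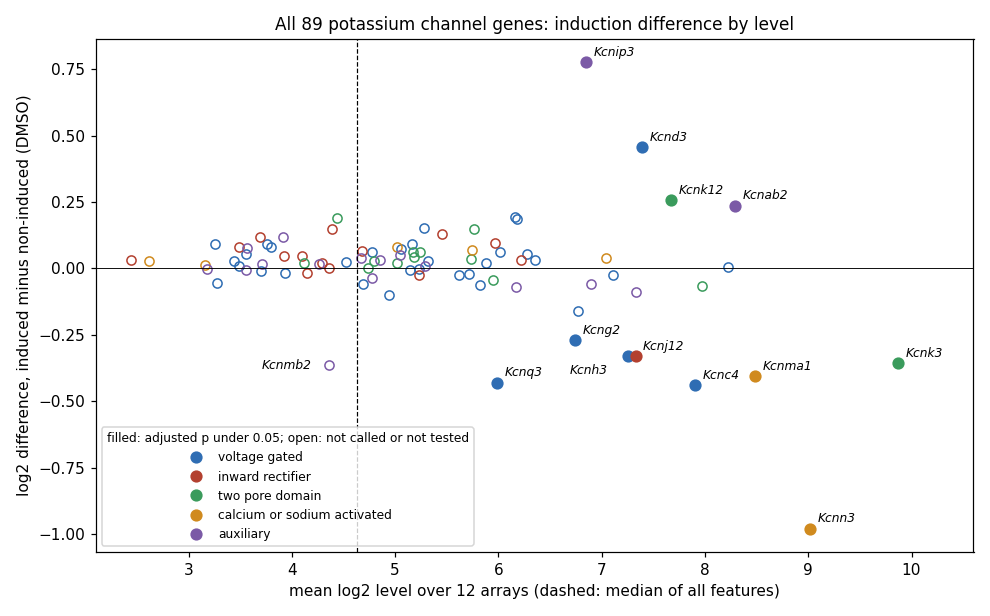
Induction difference (log2 level of induced minus non-induced DMSO arrays, vertical axis) against the mean log2 level over 12 arrays (horizontal axis) for all 89 genes, coloured by channel class. Filled points passed at an adjusted p under 0.05, and open points did not pass or, left of the dashed line at 4.63, were not tested. Kcnn3 at -0.98 and Kcnip3 at 0.78 lie farthest from 0.

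Kcnn3, which forms a small-conductance calcium-activated channel and shapes the pause after an action potential, fell most. Its levels were 9.83, 9.57 and 9.90 on non-induced arrays, 8.86, 8.57 and 8.93 with DMSO after induction, 8.37, 8.53 and 8.22 with compound 3, and 9.37, 8.76 and 9.28 with compound 6. The non-induced arrays lay above all 9 arrays of induced cells, and array 2 of compound 6 lay well below the other compound 6 arrays. The fall on induction was 0.98 ± 0.16 (95% interval -1.33 to -0.63, adjusted p = 0.00239), which is 1.97-fold. Kcnma1, the pore of the large-conductance channel opened jointly by calcium and voltage, read 8.85, 8.80 and 8.85 without induction, 8.43, 8.40 and 8.45 with DMSO, 8.20, 8.29 and 8.29 with compound 3, and 8.47, 8.30 and 8.49 with compound 6. It fell by 0.41 ± 0.06 (adjusted p = 0.00102), a gap several times the spread within either group. The other calcium- or sodium-activated genes tested, Kcnn1, Kcnn4 and Kcnt1, lay between 0.04 and 0.08 and did not pass.

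Kcnk3, an acid-sensitive background channel that contributes to the resting potential of chromaffin cells, fell in induced cells. Its levels were 10.23, 10.26 and 10.26 on non-induced arrays, 9.90, 9.83 and 9.95 with DMSO, 9.62, 9.55 and 9.50 with compound 3, and 9.78, 9.78 and 9.73 with compound 6. No group overlapped another, in the order non-induced, DMSO, compound 6, compound 3. The fall on induction was 0.36 ± 0.05 (adjusted p = 0.000951), and it was 0.26 after quantile normalisation of the arrays (adjusted p = 0.0195). Kcnk12, a tandem-pore channel that passes little current by itself, rose by 0.26 ± 0.07 (adjusted p = 0.0337), from 7.53, 7.43 and 7.40 to 7.60, 7.81 and 7.72. This call was lost in 9 of 22 alternative settings (highest adjusted p 0.136), among them those without non-induced 2 (0.109), non-induced 3 (0.132), induced DMSO 2 (0.136), induced DMSO 3 (0.0826) and compound 3 array 2 (0.0520). The remaining 10 tandem-pore genes tested did not pass.

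Among voltage-gated channels, Kcnc4, a high-threshold channel that inactivates fast, read 8.31, 8.29 and 8.26 without induction, 7.79, 7.82 and 7.93 with DMSO, 7.62, 7.58 and 7.58 with compound 3, and 7.82, 7.97 and 7.93 with compound 6. It fell by 0.44 ± 0.05 (adjusted p = 0.000614), with no overlap between the non-induced and the induced DMSO arrays. Kcnq3, a subunit of the channel behind the neuronal M-current, which damps repetitive firing, read 6.28, 6.27 and 6.55, and then 5.91, 5.89 and 6.01 with DMSO, 5.79, 5.71 and 5.62 with compound 3, and 5.94, 5.87 and 6.02 with compound 6. It fell by 0.43 ± 0.08 (adjusted p = 0.0054). Kcnh3, of the ether-à-go-go family of channels and known mainly from forebrain neurons, fell by 0.33 ± 0.06 (adjusted p = 0.00361), from 7.63, 7.61 and 7.67 to 7.26, 7.29 and 7.37. Kcng2, a silent subunit that forms no channel alone and modifies others, fell by 0.27 ± 0.05 (adjusted p = 0.00867), from 6.96, 6.99 and 6.99 to 6.70, 6.64 and 6.79. That call was lost in 1 of 22 alternatives, the fit of only these 2 groups (adjusted p 0.05003).

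Kcnd3, the pore of a transient A-type channel that opens below the firing threshold, went the other way. Its levels were 7.22, 6.92 and 7.0 on non-induced arrays, 7.49, 7.44 and 7.58 with DMSO, 7.55, 7.51 and 7.67 with compound 3, and 7.51, 7.36 and 7.48 with compound 6. It rose by 0.46 ± 0.08 (adjusted p = 0.00378), and the non-induced arrays lay below all the others. Of the closest related genes, Kcnd1 gave 0.19 ± 0.07 (adjusted p = 0.158). Kcnd2, which lay below the median and was not tested, gave 0.02. Kcng3, another silent subunit, lay at 0.19 ± 0.08 (adjusted p = 0.184), and Kcna2, a delayed rectifier found in axons, at -0.10 (adjusted p = 0.192). Kcnd1, Kcng3 and Kcna2 did not pass. Of the 26 voltage-gated genes tested, 4 fell and 1 rose, against 4.86% and 4.20% of all features.

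The inward rectifier Kcnj12, which clamps the membrane near the potassium equilibrium potential, read 7.58, 7.56 and 7.61 without induction, 7.22, 7.20 and 7.34 with DMSO, 7.20, 7.17 and 7.13 with compound 3, and 7.35, 7.28 and 7.29 with compound 6. It fell by 0.33 ± 0.05 (adjusted p = 0.00144) and was the only 1 of 6 inward rectifiers tested to pass, against 9.06% of all features.

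Of the 10 auxiliary genes tested, 2 rose and 0 fell, against 4.20% and 4.86% of all features. Kcnip3, a calcium sensor that binds A-type channels and is also known as the transcriptional repressor DREAM and as calsenilin, showed the largest rise of any member. Its levels were 6.49, 6.37 and 6.08 without induction, 7.03, 7.19 and 7.05 with DMSO, 7.17, 6.92 and 6.88 with compound 3, and 7.18, 6.90 and 6.92 with compound 6. The non-induced arrays spread widely, with array 3 lowest, and still lay below all induced arrays. The rise was 0.78 ± 0.12 (95% interval 0.52 to 1.03, adjusted p = 0.00152), or 1.71-fold. Kcnab2, a cytosolic beta subunit of Kcna channels, rose by 0.24 ± 0.05 (adjusted p = 0.011), from 8.20, 8.11 and 8.15 to 8.30, 8.45 and 8.42, and lost its call in 3 of 22 alternatives: the fit of these 2 groups alone (adjusted p 0.093), without non-induced 2 (0.0526) and without induced DMSO 2 (0.0533).

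**Figure D2:**
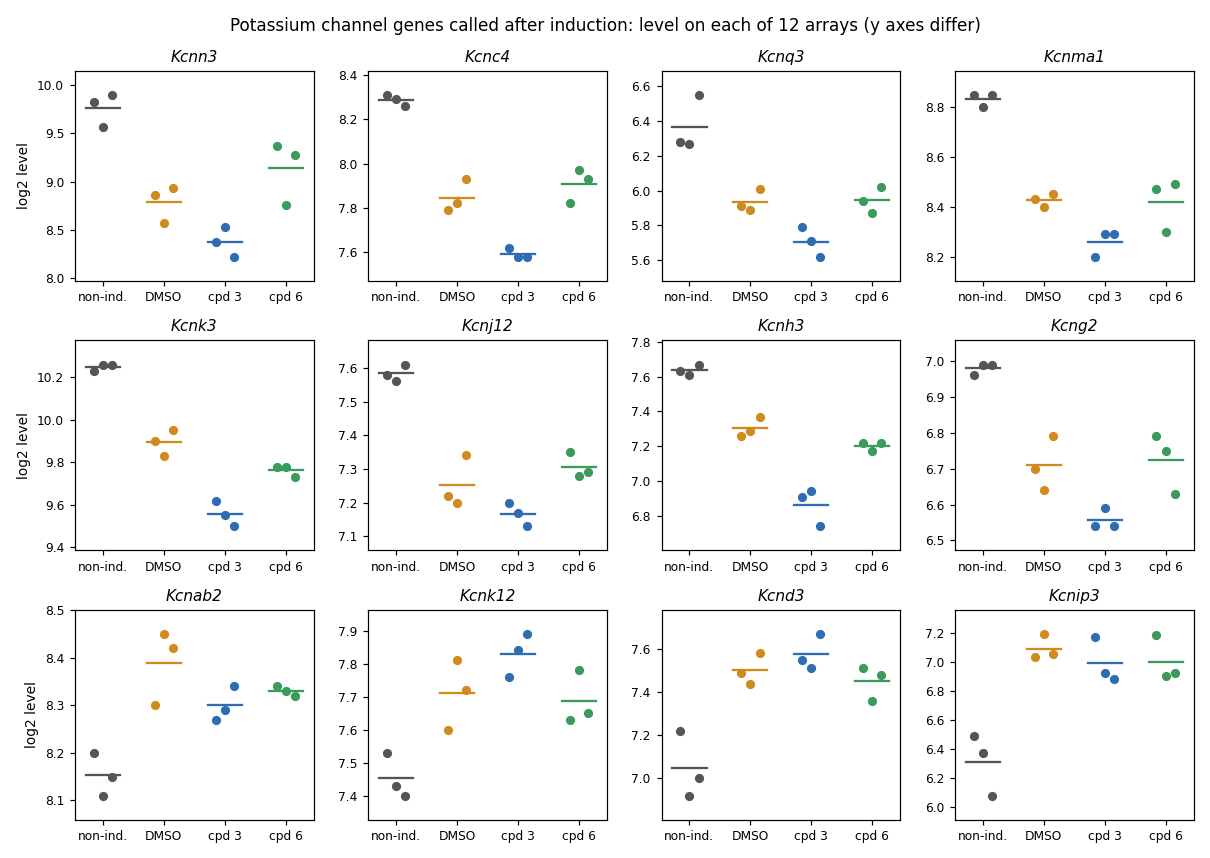
Log2 level (vertical axes, which differ between panels) on each of the 12 arrays for the 12 genes that passed on induction, ordered by their difference. Points are arrays, 3 in each of the groups non-induced DMSO, induced DMSO, induced compound 3 and induced compound 6, and lines are group means. In each panel the non-induced arrays stand apart from all 3 induced groups, and for the genes of the upper 2 rows the compound 3 arrays lie below the compound 6 arrays.

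Upstream sequence was available in RefSeq (assembly GRCr8) for 62 of the 89 genes. The windows run from 250 bases before to 50 bases after the annotated start, and are shown for 3 genes that fell and for the A-type pore gene and its calcium sensor, which rose. Kcnn3 lies at chr2:177234090-177234389 on the plus strand, Kcnma1 at chr15:351675-351974 on the plus strand, Kcnc4 at chr2:197788384-197788683 on the minus strand, Kcnd3 at chr2:195626066-195626365 on the plus strand and Kcnip3 at chr3:135195361-135195660 on the minus strand. Sequences read 5′ to 3′ on the gene's strand, and capitals mark GC boxes, the letters GGGCGG or their reverse complement CCGCCC.
Kcnn3: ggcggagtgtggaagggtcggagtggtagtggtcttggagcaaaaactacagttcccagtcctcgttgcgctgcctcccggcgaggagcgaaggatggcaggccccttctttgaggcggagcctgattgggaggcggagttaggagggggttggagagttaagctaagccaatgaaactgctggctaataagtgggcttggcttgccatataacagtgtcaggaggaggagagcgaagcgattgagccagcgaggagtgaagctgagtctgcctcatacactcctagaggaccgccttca
Kcnma1: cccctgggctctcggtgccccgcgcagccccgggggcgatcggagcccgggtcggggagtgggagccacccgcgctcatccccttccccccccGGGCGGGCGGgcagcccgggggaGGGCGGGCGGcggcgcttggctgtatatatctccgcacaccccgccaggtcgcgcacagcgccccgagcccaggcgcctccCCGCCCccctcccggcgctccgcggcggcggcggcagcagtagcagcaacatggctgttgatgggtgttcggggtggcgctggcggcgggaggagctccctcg
Kcnc4: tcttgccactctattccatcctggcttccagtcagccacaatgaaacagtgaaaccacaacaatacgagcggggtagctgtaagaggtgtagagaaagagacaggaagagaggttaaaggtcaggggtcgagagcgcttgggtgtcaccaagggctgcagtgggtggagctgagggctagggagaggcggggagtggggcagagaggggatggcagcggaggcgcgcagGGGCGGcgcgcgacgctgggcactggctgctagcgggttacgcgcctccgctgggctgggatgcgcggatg
Kcnd3: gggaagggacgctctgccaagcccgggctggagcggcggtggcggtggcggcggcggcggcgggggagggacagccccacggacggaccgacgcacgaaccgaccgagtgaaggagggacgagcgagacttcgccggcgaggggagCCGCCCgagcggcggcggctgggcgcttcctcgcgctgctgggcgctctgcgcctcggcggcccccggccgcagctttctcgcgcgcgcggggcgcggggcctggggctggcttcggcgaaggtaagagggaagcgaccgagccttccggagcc
Kcnip3: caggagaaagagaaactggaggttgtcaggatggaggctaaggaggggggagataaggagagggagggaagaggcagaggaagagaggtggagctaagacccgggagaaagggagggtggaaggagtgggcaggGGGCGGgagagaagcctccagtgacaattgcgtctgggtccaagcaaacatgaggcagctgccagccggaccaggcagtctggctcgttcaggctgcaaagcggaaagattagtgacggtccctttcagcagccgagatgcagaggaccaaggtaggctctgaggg
The GC box matched 5 times, in part overlapping, in the Kcnma1 window, 1 time each in those of Kcnc4, Kcnd3 and Kcnip3, and 0 times in that of Kcnn3. It was present in 31 of the 62 member windows and in 34.9% of all 27457 windows of this length, with 3 of the 4 windows of genes that fell and 2 of the 3 of genes that rose. Of the genes called on induction, Kcnk3, Kcnh3, Kcnj12, Kcnq3 and Kcnk12 had no window and were not searched. Searched on both strands, TGACGTCA (the cAMP response element) was in 0 of 62 windows against 1.91% of all, its half-site TGACG, which the full element contains, in 12 (19.4% against 22.0%), TATAAA in 2 (3.23% against 14.3%) and the AP-1 letters TGANTCA in 3 (4.84% against 7.33%). Half-sites among the 5 windows shown occurred 1 time, in Kcnip3. Member windows had a median of 60.8% G and C, and all windows 52.3%.

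Pore-forming genes and their partners were not called together in every case. Several partners lay close to the median of 4.63, among them Kcnmb1 at 4.67 and Kcnmb3 at 4.77. A difference near 0 at such a level does not show that a gene is unchanged. Beside Kcnma1, its regulatory beta subunits Kcnmb1, Kcnmb3 and Kcnmb4 lay at 0.04, -0.04 and 0.05 on induction (adjusted p from 0.777 to 0.857). Kcnmb2, the beta subunit that makes the channel inactivate and is known from chromaffin cells, lay below the median and was not among the genes tested. Its levels were 4.58, 4.68 and 4.68 without induction, 4.32, 4.19 and 4.34 with DMSO, 4.20, 4.38 and 4.21 with compound 3, and 4.19, 4.33 and 4.21 with compound 6, so that the non-induced arrays lay above all the others. In the fit without a filter it was at -0.36 ± 0.07 (adjusted p = 0.013), the 1 called among the 30 genes below the median, where 0.279% of all features were called, while the others lay between -0.06 and 0.19. For the A-type channel, the related sensor Kcnip2 lay at 0.01 (adjusted p = 0.941; its 3 other features at 0.10 to 0.14 did not pass either), and Dpp6, the peptidase-like subunit of the same channels, at -0.27 ± 0.07 (adjusted p = 0.0406). The Dpp6 call was lost in 11 of 22 alternatives: without a filter (adjusted p 0.0958) and without any 1 array except compound 6 array 1 or 2 (0.0518 to 0.135). The ATP-sensitive channel's pore Kcnj11 and its sulfonylurea receptor Abcc8 lay at 0.10 (adjusted p = 0.394) and 0.06 (adjusted p = 0.527). Of the Kcnq partners, Kcnq1 lay at 0.06 (adjusted p = 0.599), Kcnq5 at -0.03 (adjusted p = 0.899), and the small subunits Kcne1, Kcne2 and Kcne5 at 0.03, -0.06 and -0.07, none of which passed. Beside Kcnab2, Kcnab3 lay at -0.09 (adjusted p = 0.637), and the Kcna genes tested (Kcna2, Kcna5, Kcna6, Kcna7 and Kcna10) lay between -0.10 and 0.05.

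A list of 42 other genes of potassium handling, covering channel partners, pumps, cotransporters and regulators, had 36 genes on the array and 30 tested. On induction 3 passed higher and 1 lower, or 13.3%, near the 12.1% of named genes and 9.06% of all features, with a median of 0.01. Besides Dpp6 these were Hcn3, a pacemaker channel (0.26 ± 0.06, adjusted p = 0.0215, lost in 6 of 22 alternatives), Cntnap2, which clusters Kcna channels along axons (0.31 ± 0.06, adjusted p = 0.00693), and Rest, the repressor of neuronal genes (0.42 ± 0.08, adjusted p = 0.00642). The Hcn3 call ended without a filter (adjusted p 0.0597), with only these 2 groups (0.110), and without non-induced 2 (0.0850), non-induced 3 (0.0946), induced DMSO 2 (0.0876) or induced DMSO 3 (0.0737). Rest read 5.19, 5.10 and 4.92 on non-induced and 5.48, 5.58 and 5.40 on induced DMSO arrays, without overlap. With chromaffin markers the direction was mostly down: of 12 tested 9 fell and 1 rose, against 4.86% and 4.20% of all features, and the log2 values of the 13 on the array summed to 126 to 127 on non-induced, 117 to 120 on induced DMSO, 110 to 116 on compound 3 and 118 to 121 on compound 6 arrays. Compound 3 array 3 stood apart, with a sum of 110 against 115.6 and 115.3 on the other compound 3 arrays. It also held the lowest level of Kcnh3, Kcnn3, Kcnk3, Kcnq3, Kcnj12 and Kcnh1. Values without it are given beside many of the compound results, but the marker values were not rerun without it. Whether the markers have a part in the channel results was not tested.

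Of the 47 tested genes that did not pass on induction, all lay within 0.2 log2 units of 0, from -0.16 for Kcnh1 to 0.19 for Kcng3. They include Kcnh2, the delayed rectifier of the ether-à-go-go family that is known for cardiac repolarisation (0.01 ± 0.07, adjusted p = 0.964), and Kcnk6, a tandem-pore channel (-0.07, adjusted p = 0.729), whose other feature gave -0.05.

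**Figure D3:**
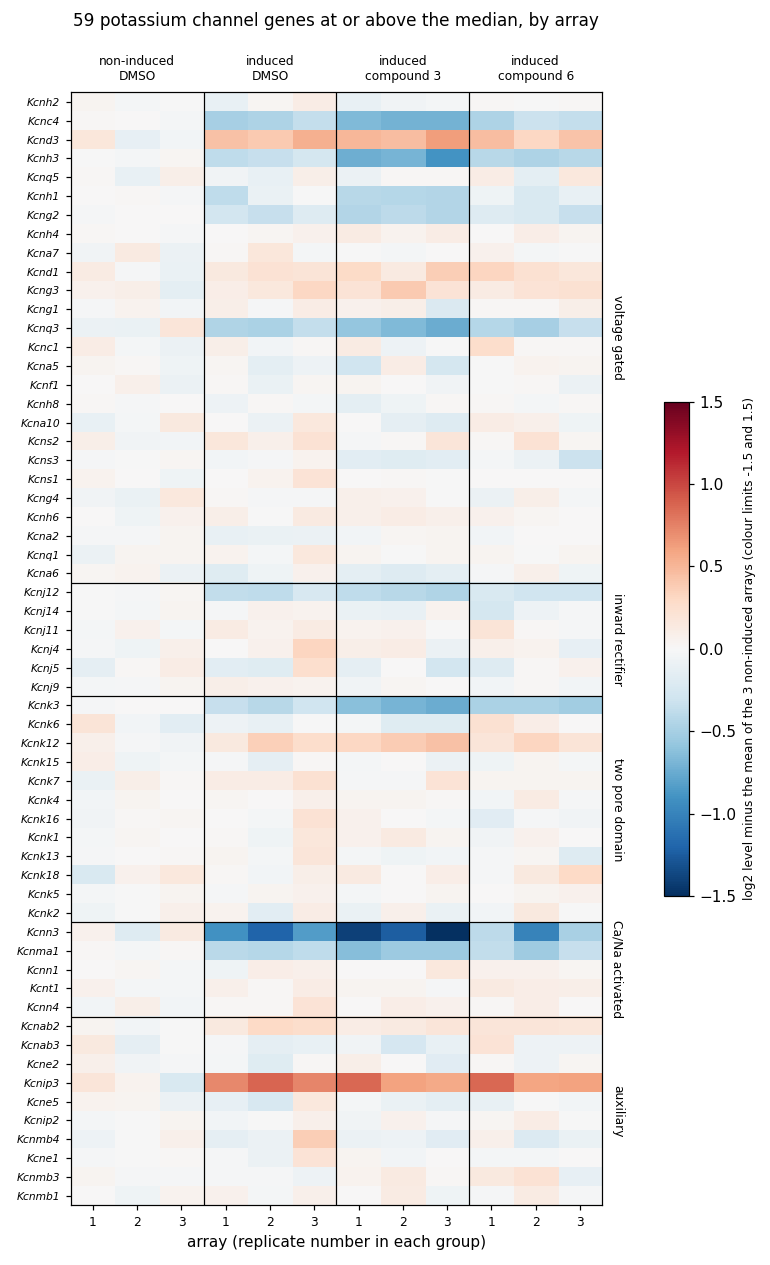
Level of each of the 59 tested genes (rows, grouped by class and ordered within it by mean level) on each of the 12 arrays (columns, by group), as the log2 difference from the mean of the 3 non-induced arrays, with blue lower, red higher and colours limited at -1.5 and 1.5. Most rows are pale in all 4 groups. Kcnc4, Kcnh3, Kcnk3, Kcnn3 and Kcnma1 are blue on all 9 arrays of induced cells, and Kcnd3 and Kcnip3 are red.

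The comparison of compound 3 with DMSO in induced cells asks what the compound changes. Of the 59 genes, 1 passed, Kcnh3, and 10 had an unadjusted p under 0.05. Over all features 8 passed, which is 0.0232% (0.0174% lower), and 7.29% had an unadjusted p under 0.05. Kcnh3 read 6.91, 6.94 and 6.74 with compound 3 against 7.26, 7.29 and 7.37 with DMSO and 7.22, 7.17 and 7.22 with compound 6. The difference from DMSO was -0.44 ± 0.06 (95% interval -0.57 to -0.32, adjusted p = 0.0484), or 1.36-fold, and the compound 3 arrays lay below all 9 others. The adjusted p sat close to the threshold, and the call was lost in 16 of 22 alternatives, including those that left out any 1 of the 12 arrays (adjusted p 0.0764 to 0.216) the replicate block (0.0501) and the fit of only these 2 groups (0.634), while the difference itself stayed between -0.48 and -0.38, the latter without compound 3 array 3 (adjusted p 0.0949).

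Other members did not pass against DMSO. Kcnk3 differed by -0.34 ± 0.05 (adjusted p = 0.0694), or by -0.31 without compound 3 array 3 (0.299), and it passed with a filter at the 75th percentile (0.0246) and with an intensity trend and a robust prior (0.0449). Kcnc4 differed by -0.25 ± 0.05 (adjusted p = 0.197) and Kcnh1, a voltage-gated channel of the ether-à-go-go family, by -0.27 ± 0.08 (adjusted p = 0.439). Without compound 3 array 3, Kcnc4 differed by -0.25 (adjusted p = 0.812) and Kcnh1 by -0.26 (0.966). Kcnh1 read 6.57, 6.85 and 6.94 with DMSO, where array 1 stood low, and 6.53, 6.52 and 6.51 with compound 3. For Kcnn3 the difference was -0.41 ± 0.16 (adjusted p = 0.589). The compound 3 arrays lay wholly apart from the DMSO arrays in 12 of the 59 genes, or 20.3% against 9.94% of all features. They were lower in 10 of the 59 genes, and in 1783 of all 34422 features. The median over the 59 genes was -0.05, and over all features 0. None of the 30 other potassium-handling genes passed in limma's test, with 1 at an unadjusted p under 0.05.

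With compound 6 against DMSO, 0 of the 59 genes passed in limma's test, and 3 had an unadjusted p under 0.05, against 1 feature (0.00291%) and 5.66% of all features. Those 3 were Kcnk3 at -0.13 ± 0.05 (95% interval -0.23 to -0.03, adjusted p = 0.875), Kcnj14, an inward rectifier, at -0.15 ± 0.07 (adjusted p = 0.877), and Kcnn3 at 0.35 ± 0.16 (95% interval 0.00 to 0.70, adjusted p = 0.879). Kcnn3 with compound 6 overlapped the DMSO arrays at its array 2. Apart from Kcnn3, the other 58 genes lay within 0.2 of 0. Arrays lay apart for 6 of the 59 genes (10.2%) and for 8.04% of all features. Of the 30 other potassium-handling genes 0 passed in limma's test and 1 had an unadjusted p under 0.05.

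Compounds 3 and 6 were compared directly at the matched dose and time, 1 pair of compounds. In limma's test 0 of the 59 genes passed, and 11 had an unadjusted p under 0.05, against 15 features (0.0436%) and 8.14% of all features. The largest differences were those of Kcnn3, higher with compound 6 by 0.76 ± 0.16 (95% interval 0.42 to 1.11, adjusted p = 0.136), Kcnh3, by 0.34 ± 0.06 (0.22 to 0.46, adjusted p = 0.108), and Kcnc4, by 0.31 ± 0.05 (0.20 to 0.43, adjusted p = 0.108). Without compound 3 array 3 the differences were 0.69 for Kcnn3 (adjusted p = 0.474), 0.28 for Kcnh3 (0.289) and 0.31 for Kcnc4 (0.345). With array weights these 3 passed (adjusted p 0.0496, 0.0298 and 0.0277), and with a filter at the 75th percentile Kcnh3 (0.0496) and Kcnc4 (0.0471) did. Arrays lay apart for 14 of the 59 genes, or 23.7% against 14.0% of all features. Of these 14, 13 were higher with compound 6.

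Higher and apart with compound 6 were 5.77% of all features and 35.8% of the 1673 features that fell on induction. The 8 genes that fell on induction were among these 13: on each of them all 3 compound 6 arrays lay above all 3 compound 3 arrays, by 0.14 (Kcnj12) to 0.76 (Kcnn3) on average. The comparison of the compounds uses none of the arrays of the induction comparison. These 8 genes were all read on the same compound arrays, so they need not be independent of each other. For Kcnma1 the nearest arrays read 8.30 with compound 6 and 8.29 with compound 3. Against the DMSO mean, compound 3 means lay lower in 8 of the 8 genes and compound 6 means in 3. All arrays lay below all DMSO arrays in 7 genes with compound 3 and in 2 with compound 6. Over all 34422 features these counts were 1783 and 1699. The DMSO arrays are shared with the induction comparison. For the 4 genes that rose on induction the differences between compounds were 0.03 for Kcnab2, -0.14 for Kcnk12, -0.13 for Kcnd3 and 0.01 for Kcnip3, and none passed. Chromaffin markers showed the like order, with 11 of 12 tested higher with compound 6 than with compound 3, and a median of 0.40. Of all 34422 features 14909 were higher, with a median of -0.01. In limma's test 0 of the 12 markers were called (10 at an unadjusted p under 0.05). The markers were not rerun without compound 3 array 3, on which their sum was lowest. Their part in the channel differences was not tested. Kcnk6 lay higher with compound 6 by 0.24 ± 0.09 (adjusted p = 0.46), with 8.22, 8.10 and 8.0 against 7.97, 7.82 and 7.81, while its other feature differed by 0.07.

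**Figure D4:**
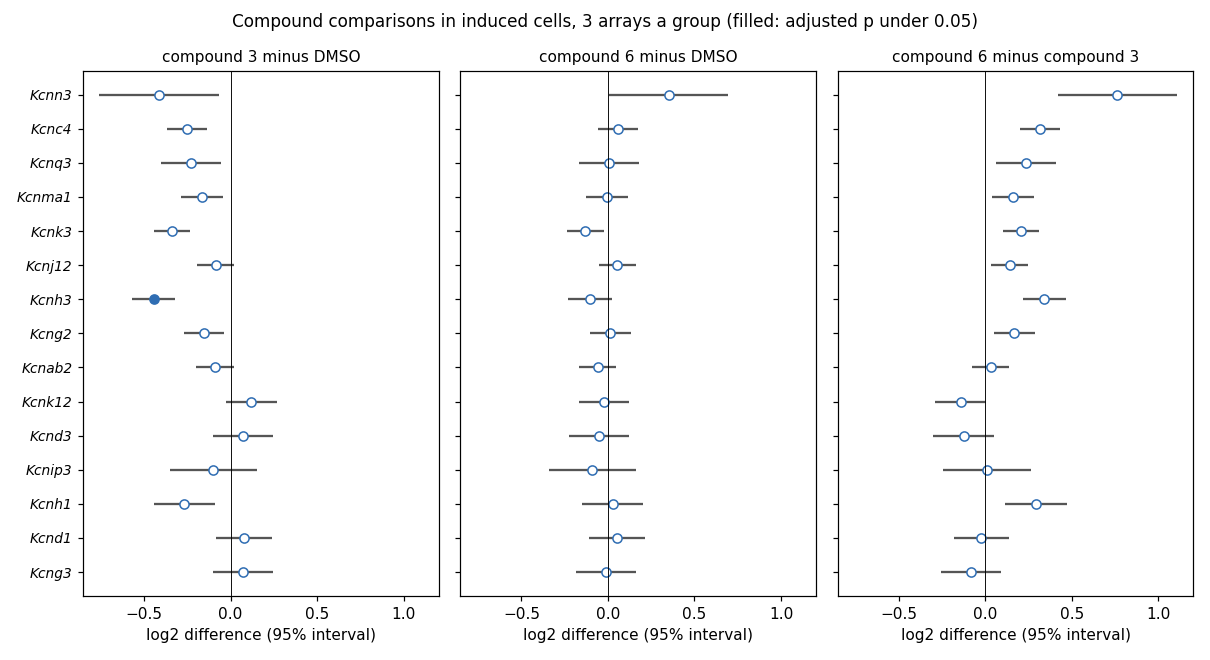
Log2 differences (points) with 95% intervals (lines) in induced cells for compound 3 minus DMSO, compound 6 minus DMSO and compound 6 minus compound 3, with 3 arrays per group, for the 12 genes that passed on induction and for Kcnh1, Kcnd1 and Kcng3. The single filled point, Kcnh3 with compound 3 at -0.44, passed at an adjusted p under 0.05. In the right panel the intervals of Kcnn3, Kcnh3 and Kcnc4 lie farthest above 0.

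Set against non-induced cells, each compound group gave its own calls, from arrays shared with the comparisons above. With compound 3, 14 of the 59 genes passed, 9 lower and 5 higher (23.7% against 15.2% of all features, with 6.82% lower and 8.34% higher, and against 21.6% of the named genes, a share close to that of the members). Arrays lay apart for 21 genes, or 35.6%, against 30.3% of all features. The differences were -1.39 ± 0.16 for Kcnn3 (adjusted p = 0.000167), -0.77 ± 0.06 for Kcnh3 (adjusted p = 1.5e-05), -0.69 for Kcnk3, -0.69 for Kcnc4, -0.66 for Kcnq3, -0.57 for Kcnma1, -0.43 for Kcnh1 (adjusted p = 0.00395), -0.42 for Kcng2 and -0.42 for Kcnj12. Kcnip3, Kcnd3 and Kcnk12 rose by 0.68, 0.53 and 0.38. Kcnd1, an A-type pore gene like Kcnd3, and Kcng3 also passed, at 0.26 ± 0.07 (adjusted p = 0.0312) and 0.27 ± 0.08 (adjusted p = 0.0435), and of 21 alternatives 7 ended the first call (adjusted p up to 0.133) and 13 the second (up to 0.177). Left out singly, non-induced 2 or 3 or compound 3 array 1 or 3 ended the call of Kcnd1, and each array but induced DMSO 1 and induced DMSO 3 that of Kcng3. Without compound 3 array 3, Kcnn3 lay at -1.32, Kcnh3 at -0.71, Kcnk3 at -0.67, Kcnq3 at -0.62, Kcnh1 at -0.42 and Kcnj12 at -0.40, all of which still passed. Closest to passing were Kcnab2 at 0.15 (adjusted p = 0.0706), Kcna6 at -0.16 (0.137) and the silent subunit Kcns3 at -0.16 (0.143). In the alternatives Kcnab2 passed in 4 of 22, Kcna6 in 0 of 21 and Kcns3 in 2 of 21.

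With compound 6, 10 of the 59 genes passed against non-induced cells, 8 lower and 2 higher (16.9% against 7.68% of all features, with 4.10% lower and 3.58% higher, and against 10.0% of the named genes). Arrays lay apart for 17 genes, or 28.8%, against 27.3% of all features. The differences were -0.63 ± 0.16 for Kcnn3 (adjusted p = 0.0324), -0.49 for Kcnk3, -0.43 for Kcnh3, -0.42 for Kcnq3, -0.41 for Kcnma1, -0.38 for Kcnc4, -0.28 for Kcnj12 and -0.26 for Kcng2, while Kcnip3 and Kcnd3 rose by 0.69 and 0.40. For Kcnn3 the call was lost in 6 of 22 alternatives, among them those without non-induced 1 (adjusted p 0.0826), non-induced 3 (0.130), compound 6 array 2 (0.101) or compound 6 array 3 (0.0527). The call of Kcng2 was lost without non-induced 2 (0.0545), non-induced 3 (0.0599) or compound 6 array 3 (0.0553), and that of Kcnd3 without non-induced 3 (0.0516). Kcnab2, Kcnk12 and Kcnd1 lay at 0.18, 0.23 and 0.24 and did not pass (adjusted p from 0.0522 to 0.0742). In the alternatives Kcnab2 passed in 4 of 22, Kcnk12 in 5 of 22 and Kcnd1 in 2 of 21. Among the other potassium-handling genes, 7 rose and 2 fell of 30 with compound 3 against non-induced cells. That is 30%, against 15.2% of all features and 21.6% of the named genes. With compound 6, 2 rose and 1 fell, which is 10%, against 7.68% of all features and 10.0% of the named genes. Dpp6 lay at -0.52 (adjusted p = 0.000646) with compound 3 and at -0.29 (adjusted p = 0.0351) with compound 6, where the call was lost in 10 of 22 alternatives, among them those without any 1 non-induced array, compound 3 array 1 or 2, or compound 6 array 2 or 3 (highest 0.104). Rest lay at 0.54 (adjusted p = 0.000782) and 0.41 (adjusted p = 0.01).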

How the data were processed

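The authors deposited 1 log2 level per feature and array, from 250 ng of total RNA on each of 12 Affymetrix rat transcriptome arrays. Expression Console and RMA, which corrects background, normalises and summarises probes, are the tools in the submitters' processing notes, without versions or options. Of 70580 features 1738 controls were left out, and 34422 of 68842 at or above the median of feature means were tested. Symbols came from the platform annotation: 23446 features had 1 symbol, 505 several and 44891 none. Of 89 member symbols 88 are current in RefSeq. No 2 arrays held identical values (0 pairs).

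Group means were fitted to all 12 arrays with limma 3.58.1 in R 4.3.3 (lmFit, contrasts.fit, eBayes), with 8 residual degrees of freedom, and p-values were adjusted by Benjamini and Hochberg over the 34422 features. The code was tested on simulated data. Intervals are 95%. The number of arrays limits the precision, with a median standard error of 0.07. The genes to name were those called, in each comparison the 3 uncalled genes of smallest p, the 10 of highest level, the 3 either side of the median, and channel partners. The members, lists and naming rule were chosen with earlier results of these data known. Alternatives were other filters, scalings and variance models, weights per array, a block for the replicate number, only the 2 groups compared, the mean of a gene's features, and leaving out each array. Some genes that match the rule may not be reported here. Figures were drawn with matplotlib 3.10.9.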

Additional observations from a re-analysis of the deposited data

How the results depend on the processing

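Of the 12 genes called on induction, 9 passed in every alternative that tested them, and Kcnab2, Kcnk12 and Kcng2 did not. The number called on induction was 9 to 12 over 22 alternatives, 12 to 15 for compound 3 against non-induced cells (14 as reported) and 7 to 13 for compound 6 against non-induced cells (10), with 0 for compound 6 against DMSO throughout. Leaving out 1 array gave 10 to 12, 12 to 15, 7 to 12 and 0 in the same order. For compound 3 against DMSO, where 1 gene passed, the count was 0 with no filter, with median scaling, with the replicate block, with only the 2 groups compared and without any 1 array (0 to 0), and 2 with the 75th percentile filter and with the intensity trend and robust prior. For compound 6 against compound 3, where 0 passed, it was 2 with the 75th percentile filter, 3 with array weights and 0 to 0 without any 1 array. For members that passed, and the 3 uncalled of smallest p in each comparison, alternatives were run and no value changed sign: of 809 alternative values of the 37 called results, 750 kept their call and 59 lost it, and of 389 of the 18 uncalled results 24 passed. The 8 partner values of Dpp6, Hcn3, Cntnap2 and Rest, whose alternatives were added after seeing the data, also kept their sign. Other named values were not rerun. The causes were not tested.

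The labels do not say what a shared replicate number marks. Deviations from the group means correlated above 0.1 in 10 of 18 same-numbered pairs (-0.17 to 0.45, median 0.11) and in 6 of 36 other pairs (median -0.10), and 6 of 12 arrays correlated best with their own number, a hint of pairing from the data and not the design. All 3 pairs exceeded 0.1 only for compound 3 against non-induced cells (0.41, 0.26 and 0.11), where the block called the same 14 genes. With the replicate block the counts were 12 on induction, 0 for compound 3 and 0 for compound 6 against DMSO, 0 between compounds, and 14 and 10 against non-induced cells. Control features were left out and no background level was set from them, so which genes are detected is not known. A difference near 0 in a gene of low level does not show that it is unchanged.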
